A study of Mus musculus with 17 samples.

Results

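Transcripts of 9 mouse chemokine and chemokine receptor genes were followed through 5 progenitor fractions of bone marrow. The genes were the receptors Cxcr4, Ccr9, Ccr7, Ccr2 and Cx3cr1 and the ligands Ccl9, Ccl6, Ccl3 and Ccl4. They were taken by symbol, with every probe set whose annotation names only that gene, which gave 19 of the 45037 non-control probe sets on the array and 9 of the 18193 genes it represents. The 17 arrays fall into 5 fractions sorted by flow cytometry from marrow of adult mice aged 10 to 14 weeks. CLP, common lymphoid progenitors, were Lin-Sca1lowKitlowIL7r+Flk2+ (3 arrays). The other fractions were all Lin-Sca1-Kit+. Of these, preGM, which leads to granulocytes and monocytes, was Itga2b-FcgRlowSlamf1-Englow (3 arrays), and preMegE, which leads to megakaryocytes and red cells, was Slamf1+Englow within the same Itga2b and FcgR gates (5 arrays). MkP, megakaryocyte progenitors, were Itga2b+Slamf1+ (3 arrays), and preCFUE, early erythroid progenitors, were Itga2b-FcgRlowSlamf1+Enghigh (3 arrays). The labels give no strain, genotype or treatment. Nothing in them ties an array to its own mouse or sort, so a p-value here weighs a difference against array-to-array spread that could be purely technical.

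Chemokines are small secreted proteins that direct cell migration by binding receptors coupled to inhibitory G proteins. In bone marrow, the binding of stromal Cxcl12 to Cxcr4 holds progenitors in their niches, and other receptors guide more mature cells to the thymus, to lymph nodes or into blood. Myeloid cells are a major source of the CC ligands, named for a pair of adjacent cysteines, which draw further leukocytes to sites of inflammation.

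The fractions carried the markers of their names, in part because of how they were sorted. The lymphoid list holds Il7r and Flt3 (the Flk2 antigen), on which the CLP gate selected. The megakaryocyte list was drawn up with Itga2b, an antigen of the MkP gate. To that extent these sums do not test the sort. The summed level of 8 lymphoid markers ran from 17080 to 24914 on CLP arrays and from 5897 to 6929 on preGM arrays, and it stayed between 186 and 828.9 elsewhere. The 828.9 was preMegE replicate 5 alone, and the next highest preMegE array read 290. A sum of B and plasma cell markers, a list that also holds Ighm, was 812 on that replicate and 195 on the next highest preMegE array. For 8 granulocyte and monocyte markers the summed level ran from 18066 to 19572 in preGM, against at most 3198 on any other array. Megakaryocyte markers were highest in MkP and erythroid markers in preCFUE, with preMegE next for the latter. Array medians lay between 16 and 19.1. The log2 ratio of 3-prime to 5-prime Gapdh probe sets, a sign of RNA shortening, ran from 2.72 to 5.12, with the highest value on CLP replicate 1. CLP replicate 2 correlated more closely with the preGM arrays (mean r 0.962) than with the other CLP arrays (0.948), and it was the only array to do so. In sorted populations measured as a whole, a lower value can come from fewer cells of a type or from less RNA per cell, and these cannot be told apart.

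Promoter sequence was read for 7 of the 9 genes from RefSeq (mouse build GRCm38.p6). Those of Ccl9 and Ccl6, neighbours on chromosome 11 that were both highest in preGM, are shown first, with the longest run of bases that they share in capitals. The windows cover the 120 bases before each annotated start and are written 5′ to 3′ on the gene's own strand, here the minus strand. They lie at chr11:83578637-83578756 for Ccl9 and chr11:83593088-83593207 for Ccl6.
Ccl9: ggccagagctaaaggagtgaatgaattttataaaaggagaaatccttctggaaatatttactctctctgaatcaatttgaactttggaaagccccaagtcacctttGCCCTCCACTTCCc
Ccl6: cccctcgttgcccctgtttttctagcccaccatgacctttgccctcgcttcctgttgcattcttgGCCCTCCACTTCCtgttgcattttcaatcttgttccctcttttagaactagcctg
The shared run, GCCCTCCACTTCC, is 13 bases long and was the longest among the 21 pairs of these genes. It starts 14 bases before the start of Ccl9 and 55 bases before that of Ccl6. It holds ACTTCC, which reads GGAAGT on the other strand, letters of the kind bound by ETS factors such as PU.1. GGAAGT occurs on either strand in the 250 bases upstream of 19.7% of the 32851 annotated starts, and among these genes also in Ccl3. It says nothing here about binding.

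The promoters of Cxcr4 and Ccr9, both highest in CLP, share at most 8 bases in a row. Ccr7, also highest in CLP, is not among the 7 genes with promoter sequence. The Cxcr4 window, chr1:128592300-128592419 on the minus strand, has in capitals a pair of overlapping matches to TATAAA on either strand. The Ccr9 window, chr9:123767091-123767210 on the plus strand, has in capitals CAGGTG, an E-box of the kind bound by E proteins.
Cxcr4: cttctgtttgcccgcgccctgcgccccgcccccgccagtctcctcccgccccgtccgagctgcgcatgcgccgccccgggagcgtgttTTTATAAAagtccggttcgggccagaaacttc
Ccr9: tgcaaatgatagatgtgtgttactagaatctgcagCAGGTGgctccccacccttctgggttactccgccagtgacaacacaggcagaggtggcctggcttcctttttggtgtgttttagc
TATAAA was found upstream of 12.4% of all starts and CAGGTG upstream of 17.2%, both counted on either strand over 250 bases. TATAAA does not mark genes high in CLP here. Ccl9, highest in preGM, also has overlapping matches from 94 to 87 bases before its start, left in small letters above. Cxcr4 and Ccl9 share a run of 11 bases, TTTTATAAAAG, longer than that of Cxcr4 and Ccr9. A search for TTGCNNAA, the core of C/EBP sites, matched none of the 7 genes and 9.56% of all starts.

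Levels below are intensities, and a level with ± is a mean and SD (n = 5 for preMegE, otherwise n = 3). Differences were taken between means of log2(intensity + 16) and carry ± SE. That scale understates the change of dim genes, and folds are ratios of mean intensities. Over the 5 fractions, 11 of the 19 probe sets passed limma's F test at an adjusted p under 0.05, against 23.7% of all probe sets. Each gene is represented by its brightest probe set, and 8 of these 9 passed, against 32.3% of all genes by their brightest probe set. The exception was Ccr2, where dimmer probe sets passed.

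The members divided mainly between CLP, preGM and the other 3 fractions. In CLP against preGM, 3 of the 19 probe sets were higher and 3 lower, where 3.9% of all probe sets were higher and 6.91% lower (10.8% in all). In preMegE against preGM none was higher and 8 were lower, against 1.75% higher and 3.46% lower on the whole array (5.21% in all). These comparisons share the preGM arrays. The median difference over the 9 genes was -0.45 in preMegE against preGM, where that over all genes was 0.01, and it was 0.30 in CLP against preGM, where that over all genes was 0.0046.

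No member probe set passed within the megakaryocyte and erythroid branches in the main fit. With only 19 probe sets this lies close to the shares of all probe sets given below, so it does not set the members apart. Ccr9, Ccr7, Ccl6, Ccl3 and Cx3cr1 were also near or under 16 in these fractions, which limits what the arrays resolve there. For MkP against preMegE, limma called 0 of 19 (2 at an unadjusted p under 0.05) and 6.28% of all probe sets. For preCFUE against preMegE it called 0 (also 0 unadjusted) and 5.34% of all, and for MkP against preCFUE 0 (1 unadjusted) and 10.1% of all. With array weights, which count noisier arrays less, 1 probe set, 1460067_at of Ccr2, passed in this last comparison. Leaving out CLP replicate 2 or MkP replicate 1 also gave 1.

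In the remaining pairs, the member probe sets that passed were higher in CLP or preGM. Against preMegE, CLP had 6 probe sets higher (8 of 19 at an unadjusted p under 0.05), where 16.7% of all probe sets passed and 6.91% were higher. It had 4 higher than MkP (8.35% of all passed, 4.54% higher) and 5 higher than preCFUE (20.3% passed, 7.59% higher). preGM had 7 higher than MkP (6.55% passed, 4.28% higher) and 8 higher than preCFUE (8.48% passed, 4.95% higher).

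**Figure D1:**
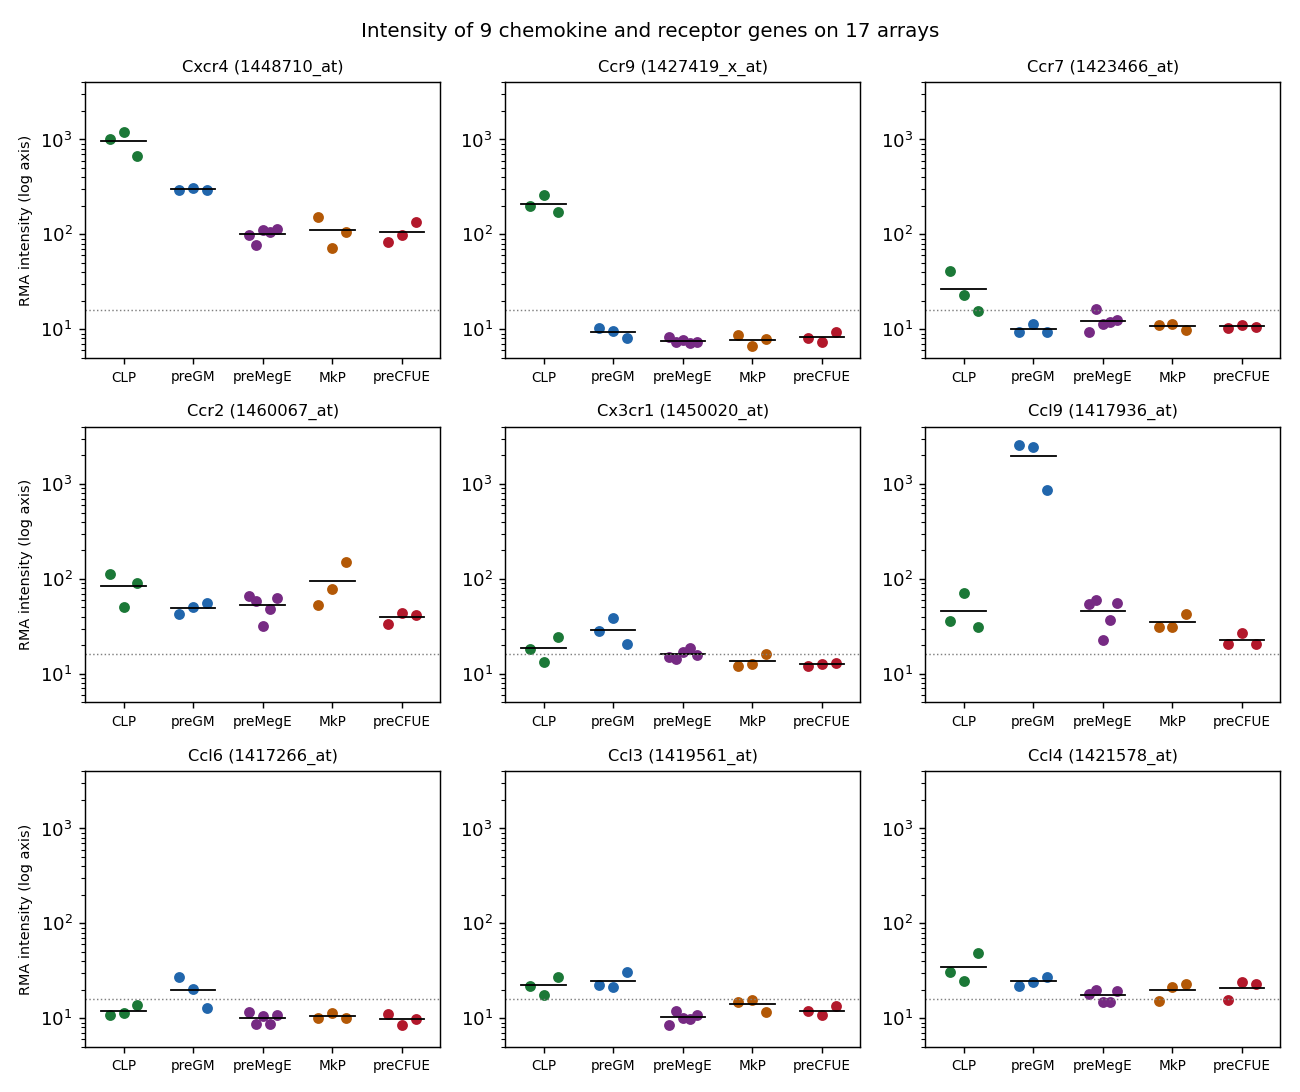
Intensity of each gene's brightest probe set on every array, on a log axis, with the 5 fractions side by side. Points are arrays, short lines are fraction means, and the dotted line marks 16, the constant added before taking logs; Cxcr4 and Ccr9 are highest in CLP, while Ccl9 is highest on the 3 preGM arrays.

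Cxcr4, the receptor for Cxcl12, was the most graded of the receptors. On the 3 CLP arrays its intensity was 1024, 1200.3 and 673, and on the preGM arrays it was 295, 311 and 294. The preMegE arrays gave 97.5, 76.8, 111, 106 and 114, the MkP arrays 154, 72.6 and 106, and the preCFUE arrays 84.0, 97.8 and 134. Every CLP array lay above every preGM array, and every preGM array above all arrays of the other 3 fractions, which overlapped one another.

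The step from preGM up to CLP in Cxcr4 was 3.22-fold, or 1.60 ± 0.24 on the log2 scale (limma adjusted p = 0.000925). preMegE fell by 1.44 ± 0.21 against preGM (limma adjusted p = 0.000544), with preGM 2.96-fold above it. CLP stood 9.54-fold above preMegE (3.04 ± 0.21, limma adjusted p = 1.81e-07), and 2.96 ± 0.24 above MkP and 3.00 ± 0.24 above preCFUE on the log2 scale. Cxcr4 was therefore lower in each of the 3 megakaryocyte and erythroid fractions than in preGM, with preGM 1.37 ± 0.24 above MkP (limma adjusted p = 0.00272) and 1.40 ± 0.24 above preCFUE (0.0013). Among those 3 fractions no order could be read: MkP differed from preMegE by 0.07 (95% interval -0.38 to 0.53) and preCFUE from preMegE by 0.04 (-0.42 to 0.49).

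Ccr9, the receptor for Ccl25 that guides lymphoid cells to the thymus and the gut, was bright in CLP alone by its brightest probe set, 1427419_x_at. That probe set read 199.8, 258 and 171 on the CLP arrays. It read 10.4, 9.65 and 8.13 in preGM, and every array of preMegE, MkP and preCFUE lay between 6.69 and 9.38. The CLP arrays thus stood far above all 14 others, which were all under 16. CLP was 22.3-fold above preGM (3.13 ± 0.10, limma adjusted p = 2.32e-10), and 27.6-fold above preMegE (3.24 ± 0.09, 2.42e-11).

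The other 4 Ccr9 probe sets were dim on nearly all arrays, with CLP means of 12.5, 18.3, 11.3 and 9.68 that were the highest of the 5 fractions on each. Their suffixes differ from that of the brightest one, whose "_x_at" marks probes that can also match other transcripts. Of these 4, 1421920_a_at read 11.2, 32.7 and 11.2 on the CLP arrays, above all 14 others, and passed against preMegE (0.52 ± 0.14, limma adjusted p = 0.0234). That value fell to 0.24 without CLP replicate 2, with an adjusted p of 0.00748, and over all settings tried its adjusted p ran from 0.00487 to 0.124. 1442758_at passed against preCFUE by 0.15 (limma adjusted p = 0.0382), a call lost under 13 of 25 other settings, and the F test over the fractions called none of the 4. The mean of the log2 values over all 5 Ccr9 probe sets was still 0.81 higher in CLP than in preGM (limma adjusted p = 9.52e-07).

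Markers of other lymphoid cells and of dendritic cells were read beside the CLP results. Of 9 measured T and NK cell markers, limma called 0 in CLP against preGM (3 at an unadjusted p under 0.05). Of all genes, 4.17% were higher there and 10.6% lower. The summed level of the T and NK cell markers ran from 390 to 487 in CLP and from 407 to 533 in preGM. Cd3g, a chain of the T cell receptor complex, averaged 8.82 in CLP and 7.44 in preGM. Of 9 measured B and plasma cell markers, 5 were higher in CLP than in preGM, against 4.17% of all genes, and their sum ran from 3094 to 4066 there against 1035 to 1242 in preGM. The B and plasma cell list shares Ighm with the lymphoid markers above. Ms4a1, the mature B cell antigen CD20, averaged 9.38 in CLP and 8.53 in preGM, both under 16. The summed level of 8 dendritic cell markers ran from 2090 to 2925 in CLP, from 1422 to 1537 in preGM and from 228 to 276 in the other fractions. Most of it was Flt3, the Flk2 antigen of the CLP gate. Of the 8, 2 were higher in CLP than in preGM, against 4.17% of all genes. In CLP against preMegE 5 of the 8 were higher, against 8.2% of all genes. The part of B lineage and dendritic cells in the Cxcr4, Ccr9, Ccr7, Ccl3 and Ccl4 values was not tested.

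**Figure D2:**
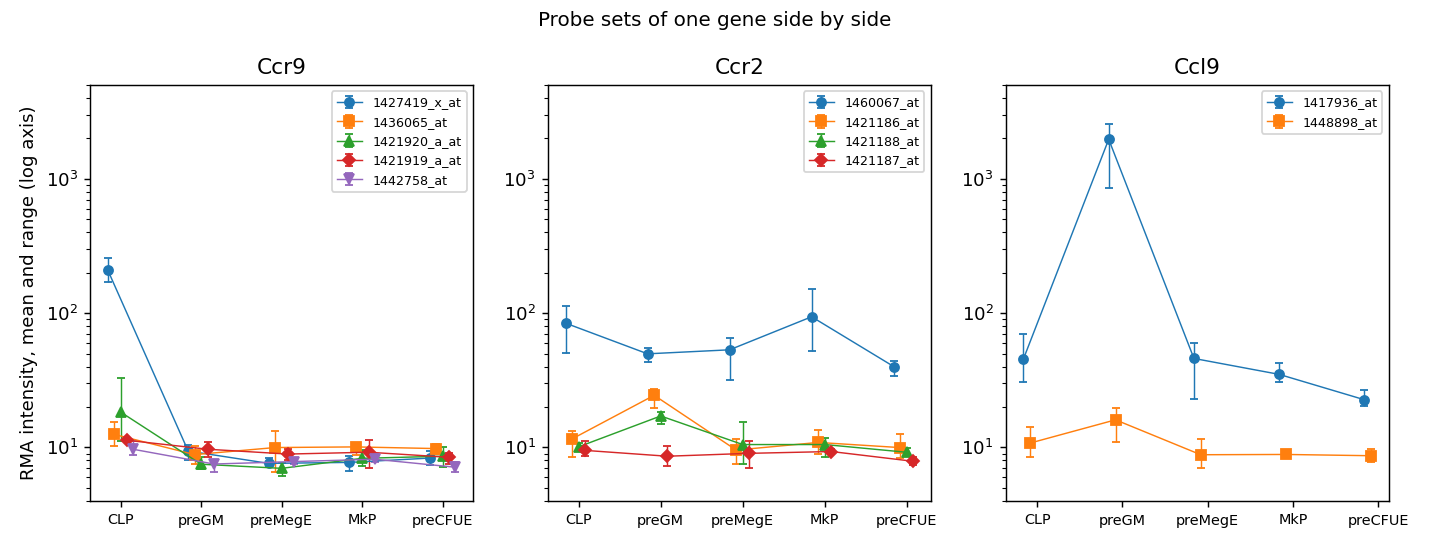
Mean intensity of every probe set of Ccr9, Ccr2 and Ccl9 in each fraction, on a log axis, with bars from the lowest to the highest array. The brightest probe sets of Ccr9 and Ccl9 stand apart in CLP and preGM, while the Ccr2 probe sets place different fractions on top.

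Ccr7, the receptor for Ccl19 and Ccl21 that brings cells into lymph nodes, was dim and uneven. Its intensity was 41.5, 22.7 and 15.6 on the CLP arrays, and 9.36, 11.4 and 9.28 in preGM. In preMegE it was 9.46, 16.3, 11.5, 11.8 and 12.4, and in MkP and preCFUE it stayed between 9.88 and 11.4. The lowest CLP array lay above every preGM, MkP and preCFUE array, but below 1 preMegE array.

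By limma, Ccr7 in CLP was 0.67 ± 0.15 above preGM (adjusted p = 0.0156) and 0.55 ± 0.14 above preMegE (0.0140). Against preCFUE the difference was 0.63 ± 0.15 (limma adjusted p = 0.00926). Without CLP replicate 1, the brightest array, the differences were smaller and still passed: 0.43 from preGM (adjusted p = 0.02), 0.31 from preMegE (0.0370), 0.38 from MkP (0.0250) and 0.39 from preCFUE (0.0136). The call against preGM did not pass once preGM replicate 1 was left out (adjusted p = 0.0596), or when only these 2 fractions were fitted (0.217), and its adjusted p ran from 0.00163 to 0.217 over all settings. The other Ccr7 calls also ended in fits of the 2 fractions alone, with an adjusted p of 0.101 against preMegE and 0.146 against preCFUE. The call against MkP, 0.62 ± 0.15 (adjusted p = 0.0201), ended without MkP replicate 1 (0.0559), 2 (0.0514) or 3 (0.0668), over a range of 0.0013 to 0.277.

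Ccr2, the receptor for Ccl2 that lets monocytes leave the marrow, had 4 probe sets that disagreed. The brightest, 1460067_at, read 112, 50.1 and 90.4 in CLP, 43.1, 51.0 and 55.2 in preGM, and 52.5, 78.8 and 150.5 in MkP. In preMegE it ran from 31.8 to 65.3 and in preCFUE from 33.8 to 44.1. The fractions overlapped except that CLP and MkP lay above preCFUE, and neither of those differences passed (0.79 ± 0.30, limma adjusted p = 0.0779, and 0.88 ± 0.30, 0.0818). That of CLP passed without CLP replicate 2 (1.06, 0.0179), over a range of 0.0179 to 0.259 in all settings. That of MkP passed without MkP replicate 1 (1.17, 0.0300), over a range of 0.0300 to 0.315.

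A second Ccr2 probe set, 1421186_at, put preGM highest. It read 26.5, 27.3 and 19.5 there, and no array of any other fraction exceeded 13.6. CLP fell by 0.55 ± 0.10 against preGM (limma adjusted p = 0.00458) and preMegE fell by 0.66 ± 0.09 (0.000311), with preGM 2.11-fold and 2.56-fold above them. It also stood 0.59 ± 0.10 above MkP (limma adjusted p = 0.00274) and 0.64 ± 0.10 above preCFUE (0.000812). The difference from CLP did not pass in a fit of these 2 fractions alone (0.112, the highest over the settings tried, where the lowest was 0.00127).

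1421188_at pointed the same way at lower levels, with 14.8, 18.3 and 18.3 in preGM and a highest value elsewhere of 15.6, on a preMegE array. CLP fell by 0.34 (limma adjusted p = 0.0303) and preMegE fell by 0.33 (0.0282) against preGM. The first of these ended without CLP replicate 1 (0.0776) or 3 (0.0685), or preGM replicate 2 (0.106) or 3 (0.0599). The second ended without preGM replicate 2 (0.134) or 3 (0.12), or preMegE replicate 1 (0.066), 3 (0.0564) or 4 (0.0702). Over all settings the adjusted p of the first ran from 0.00548 to 0.106 and that of the second from 0.00145 to 0.141. The fourth probe set, 1421187_at, stayed between 6.99 and 11.1 on all arrays.

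Cx3cr1, the receptor for Cx3cl1 on monocytes and macrophages, was dim and highest in preGM. Its brighter probe set read 28.2, 38.3 and 20.6 in preGM and 18.3, 13.4 and 24.5 in CLP. It ran from 14.4 to 18.7 in preMegE, from 12 to 16.1 in MkP and from 12 to 13.1 in preCFUE. The preGM arrays lay above those of the last 3 fractions but overlapped CLP, where the difference from preGM was -0.37 (95% interval -0.64 to -0.09, limma adjusted p = 0.0775). That difference passed without preGM replicate 3 (-0.51, 0.0179), over a range of 0.0177 to 0.339 in all settings.

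preGM exceeded preCFUE by 0.64 ± 0.13 (limma adjusted p = 0.00501, and 0.0619 in a fit of these 2 fractions alone, the highest over the settings, where the lowest was 2.76e-05) and MkP by 0.59 ± 0.13 (0.0129) in Cx3cr1. preMegE fell by 0.47 ± 0.11 against preGM (limma adjusted p = 0.0262). This last call ended without preGM replicate 1 (0.0877) or 2 (0.17), or preMegE replicate 1 (0.0591), 2 (0.0593) or 5 (0.0564). The call against MkP ended without preGM replicate 2 (0.0598) or MkP replicate 1 (0.0545). The adjusted p ran from 0.000138 to 0.17 over all settings for preMegE and from 0.000293 to 0.0953 for MkP. The other Cx3cr1 probe set stayed between 8.32 and 14.3 and did not pass the F test (adjusted p = 0.924).

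Ccl9, a macrophage chemokine that acts through Ccr1, had the widest range of the 9 genes. Its brighter probe set, 1417936_at, read 2573, 2477 and 856 on the preGM arrays. It read 36.0, 70.2 and 30.8 in CLP, 54.2, 59.7, 22.8, 36.9 and 56.3 in preMegE, 30.9, 31.5 and 42.6 in MkP, and 20.8, 26.7 and 20.4 in preCFUE. All 3 preGM arrays lay far above every other array, although preGM replicate 3 lay well below the other two.

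preGM exceeded CLP 43.1-fold and preMegE 42.8-fold in Ccl9. On the log2 scale CLP fell by 4.90 ± 0.37 (limma adjusted p = 1.58e-06) and preMegE fell by 4.89 ± 0.33 (2.28e-07) against preGM. preGM was 56.3-fold above MkP (5.13 ± 0.37, limma adjusted p = 5.82e-07) and 87.0-fold above preCFUE (5.53 ± 0.37, 1.68e-07). These calls held under every setting tried. Among the low fractions, preCFUE differed from preMegE by -0.64 (95% interval -1.35 to 0.07), which did not pass.

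The second Ccl9 probe set was dim, at 17.4, 19.8 and 11 in preGM and between 7.05 and 14.2 elsewhere. preMegE fell by 0.36 ± 0.09 on it (limma adjusted p = 0.0332). That call ended without preGM replicate 1 (0.161) or 2 (0.211), or preMegE replicate 1 (0.0786), 3 (0.0533), 4 (0.0818) or 5 (0.0592), over a range of 5.1e-05 to 0.257. With the mean of the log2 values over both probe sets, the difference from preGM was -2.58 in CLP and -2.62 in preMegE.

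Ccl6, a related chemokine of myeloid cells, was much dimmer. It read 27.0, 20.3 and 12.7 in preGM, 10.8, 11.3 and 13.9 in CLP and 11.6, 8.81, 10.5, 8.62 and 10.8 in preMegE. MkP and preCFUE arrays lay between 8.4 and 11.5. preGM replicate 3, again the lowest of its fraction, fell within the CLP range but above all preMegE, MkP and preCFUE arrays.

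preMegE fell by 0.45 ± 0.10 against preGM in Ccl6 (limma adjusted p = 0.0122), and preGM was 0.42 ± 0.11 above MkP (0.0345) and 0.46 ± 0.11 above preCFUE (0.0140). The fall in preMegE did not pass without preGM replicate 1 (0.0684) or 2 (0.0617). The difference from MkP ended without preGM replicate 1 (0.136) or 2 (0.111), or MkP replicate 1 (0.0987), 2 (0.0558) or 3 (0.106), and that from preCFUE without preGM replicate 1 (0.0526) or 2 (0.0528) or preCFUE replicate 2 (0.0617). Over all settings the adjusted p reached 0.102 for preMegE, 0.184 for MkP and 0.169 for preCFUE, from lowest values of 9.5e-05, 0.000786 and 0.000138. CLP differed from preGM by -0.35 (95% interval -0.58 to -0.11, limma adjusted p = 0.0561). Without preGM replicate 3 that difference was -0.50 (0.00247), over a range of 0.00247 to 0.303 in all settings. The second Ccl6 probe set did not pass the F test (adjusted p = 0.214).

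Some myeloid markers were also higher in preGM. The summed level of 12 macrophage and monocyte markers ran from 2068 to 2282 in preGM, from 575 to 765 in CLP and from 219 to 287 in preMegE. Of the 12, 3 were lower in CLP than in preGM, where 10.6% of all genes were lower, and 3 were lower in preMegE than in preGM, where 5.32% were. The median difference over the 12 was 0.08 in CLP and 0.01 in preMegE. Csf1r, the receptor for the monocyte growth factor, is also among the granulocyte and monocyte markers above, so to that extent these sums are not separate readings. It accounted for most of the sum, at a mean of 1686 in preGM and 52.8 in preMegE. Lyz2, lysozyme, averaged 293 and 66.7, and Cd68, a lysosomal protein of macrophages, 46.7 and 9.71. Of the 12, 4 were under 16 on every preGM array, among them Mrc1, and the macrophage marker Adgre1 averaged 16.8 in preGM and 16.6 in preMegE. The sum of 8 neutrophil markers ran from 253 to 1611 in preGM, from 114 to 245 in CLP and from 130 to 1584 in preMegE. The F test called 0 of the 8 (also 0 at an unadjusted p under 0.05), against 32.3% of all genes. In CLP against preGM limma called 0 of the 8 (2 at an unadjusted p under 0.05), with a median difference of -0.97. The part of more mature myeloid cells in the Ccl9, Ccl6 and Cx3cr1 values was not tested.

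Ccl3, an inflammatory ligand of Ccr1 and an inhibitor of progenitor growth, was higher in both CLP and preGM. It read 22.0, 17.7 and 27.4 in CLP and 22.4, 21.2 and 30.4 in preGM. It read 8.59, 11.9, 10.1, 9.84 and 10.9 in preMegE, 15.0, 15.6 and 11.7 in MkP, and 12.1, 10.7 and 13.3 in preCFUE. Every array of CLP and preGM lay above every array of the other 3 fractions, all of which were under 16.

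preMegE fell by 0.63 ± 0.09 against preGM in Ccl3 (2.41-fold lower in mean intensity, limma adjusted p = 0.000339). CLP exceeded preMegE by 0.54 ± 0.09 (2.18-fold, limma adjusted p = 0.000755) and preCFUE by 0.44 ± 0.10 (0.00476), and preGM exceeded preCFUE by 0.53 ± 0.10 (0.00257). CLP and preGM differed by -0.09 (95% interval -0.30 to 0.12), with no order between them. The difference of CLP from preCFUE did not pass in a fit of these 2 fractions alone (0.0592, over a range from 0.00132). Against MkP the margins were thinner. preGM exceeded MkP by 0.43 ± 0.10 (limma adjusted p = 0.0173), which did not pass without preGM replicate 3 (0.0582) or MkP replicate 3 (0.0808), over a range of 0.00377 to 0.0868. CLP exceeded MkP by 0.34 (0.0444), a call that ended under 19 of 28 other settings.

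Ccl4, an inflammatory ligand and the neighbour of Ccl3 on chromosome 11, differed less. It read 30.7, 24.5 and 48.8 in CLP, 21.7, 24.2 and 27.5 in preGM and 17.9, 19.9, 14.7, 15.0 and 19.5 in preMegE. MkP arrays read 15.2, 21.5 and 23.1 and preCFUE arrays 15.8, 24.2 and 23.0. CLP arrays lay above all preMegE, MkP and preCFUE arrays, and preGM arrays above all preMegE arrays, while the other pairs of fractions overlapped.

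Only CLP against preMegE passed for Ccl4 (1.99-fold, 0.57 ± 0.13, limma adjusted p = 0.00953), of the 10 pairs tested. Without CLP replicate 3, the brightest array, it was 0.38 and did not pass (0.0538), the only such setting, with a lowest adjusted p of 0.00177. CLP differed from preGM by 0.30 (95% interval -0.02 to 0.62, limma adjusted p = 0.203). That difference was 0.44 and passed without CLP replicate 2 (0.0444), over a range of 0.0444 to 0.678 in all settings. CLP differed from preCFUE by 0.43 (limma adjusted p = 0.0556), and this passed under 4 other settings, among them without CLP replicate 2 (0.58, 0.0102), over a range of 0.0102 to 0.248.

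**Figure D3:**
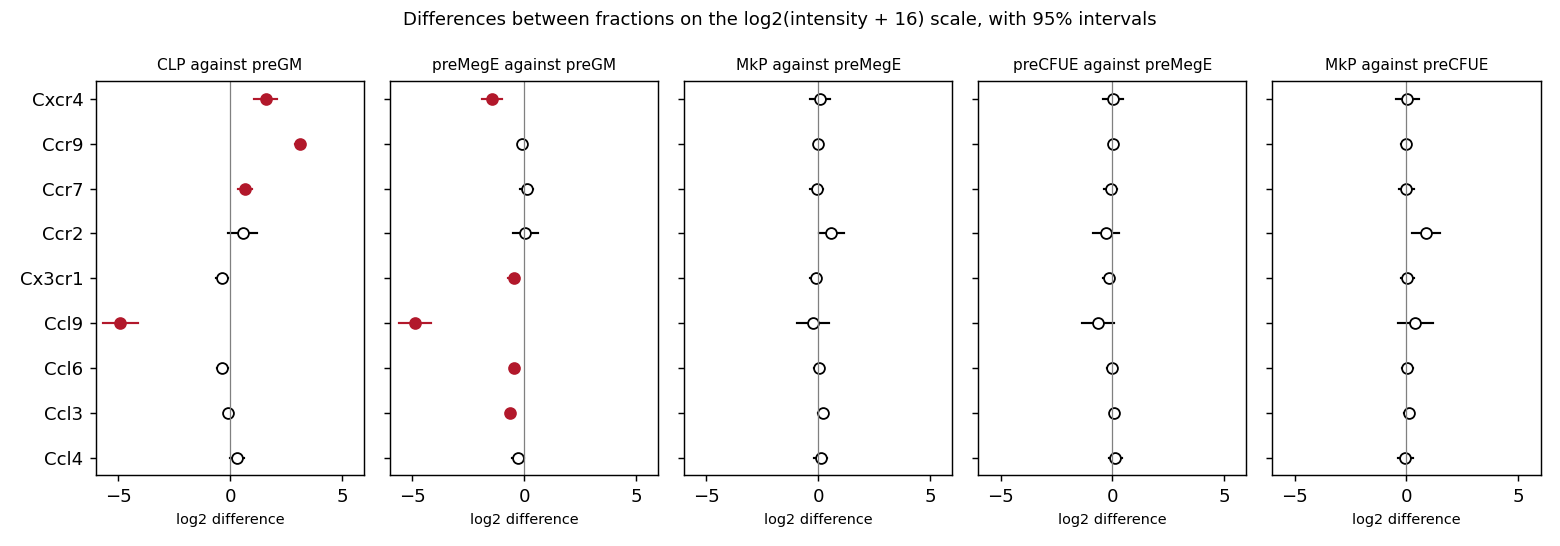
Differences in log2(intensity + 16) between fractions for the brightest probe set of each gene, with 95% intervals from the limma fit; filled red points passed at an adjusted p under 0.05. The points for CLP or preMegE against preGM spread widely, led by Ccl9, while none of those among preMegE, MkP and preCFUE passed.

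The other genes of the chemokine system were read from lists. Of 20 further chemokine receptors, 18 were measured. The F test called 0 of them (also 0 at an unadjusted p under 0.05), against 32.3% of all genes. In the 5 comparisons of neighbouring fractions limma called none of the 18 either, with between 0 and 2 at an unadjusted p under 0.05. Between 5.21% and 10.8% of all probe sets passed in these comparisons. The median difference over these receptors was 0.04 in CLP against preGM and 0.01 in preMegE against preGM. The receptors with a call between fractions were almost all among the 5 described above. Those 5 were chosen with earlier results of these data known, so this split says nothing about the family. Ccr4 was the exception, 0.28 higher in CLP than in preMegE (limma adjusted p = 0.0300), a call lost with quantile normalization or median centring.

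Of 34 further ligands, 31 were measured and 5 passed the F test, a smaller share than the 32.3% of all genes. The widest changes belonged to the platelet chemokines of the megakaryocyte branch. Pf4, stored in platelet granules, averaged 6431 ± 316 in MkP, 50.9 ± 10.0 in preMegE and 37.2 ± 6.41 in preCFUE, so that MkP was 6.60 ± 0.16 above preMegE (limma adjusted p = 2.99e-11) and 6.93 ± 0.18 above preCFUE (7.14e-11). Ppbp, its neighbour in platelet granules, averaged 86.0 ± 33.5 in MkP and 8.29 ± 0.80 in preMegE (2.01 ± 0.17, limma adjusted p = 3.54e-06). None of the 9 genes followed in detail passed in these comparisons, where few of all probe sets did (6.28% for MkP against preMegE and 10.1% for MkP against preCFUE).

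Ccl5, a ligand made by T cells and platelets, had its highest mean in preGM, at 32 ± 9.49. It averaged 21.9 ± 2.71 in CLP and 22.3 ± 1.64 in MkP, and limma called neither difference from preGM. In preMegE it averaged 16.1 ± 2.57 (a difference from preGM of -0.57 ± 0.11, limma adjusted p = 0.00398). That call did not pass in a fit of preMegE and preGM alone (0.0541, over a range from 0.000105). In CLP against preGM 3 of the 31 ligands were higher and 0 lower, where 4.17% of all genes were higher and 10.6% lower. With median centring the counts were 2 higher and 1 lower. Cxcl16, the ligand of Cxcr6, led at 60.1 ± 22.8 in CLP and 31.4 ± 8.21 in preGM (0.65 ± 0.19, limma adjusted p = 0.0419), and this call ended under 15 of 28 other settings. Ccl1, the ligand of Ccr8, was 0.50 ± 0.14 higher (0.0335) and lost its call without CLP replicate 1 (0.105) or 3 (0.139), or preGM replicate 1 (0.121) or 2 (0.0858), over a range of 0.003 to 0.18. Ccl27a, a skin chemokine, fell by 0.57 ± 0.13 in preCFUE against preMegE (limma adjusted p = 0.0179), which did not hold without preCFUE replicate 2 (0.101) or 3 (0.0602), over a range of 0.00294 to 0.101.

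Proteins that carry or end the receptor signal were read from a list of 34 genes. Of these 33 were measured, and 17 passed the F test, against 32.3% of all genes. In preCFUE against preMegE, 9 were lower and 0 higher, where 3.52% of all genes were lower, and their median difference was -0.35 against 0.0061 over all genes. In MkP against preCFUE, 8 were higher and 0 lower, where 4.91% of all genes were higher, with a median of 0.35. Quantile normalization changed these counts to 8 lower and to 12 higher. Markers of other cells were lower in preCFUE as well: the sum of 9 mast cell and basophil markers ran from 1793 to 2282 in preMegE and from 389 to 566 in preCFUE, with 2 of the 9 lower, and that of 9 T and NK cell markers from 559 to 725 and from 187 to 214, with 1 lower. Their part in the signalling counts was not tested.

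The largest of these differences lay in the RGS proteins, which speed the switching-off of G proteins. Rgs18, found in megakaryocytes, averaged 1094 ± 212 in MkP, 704 ± 113 in preMegE, 133 ± 32.7 in preCFUE and 139.9 ± 95.9 in CLP. preCFUE fell by 2.28 ± 0.33 against preMegE (limma adjusted p = 0.000793), and MkP was 2.91 ± 0.37 above preCFUE (0.000155). Rgs1 was also lower in preCFUE than in preMegE and MkP, with preCFUE at -1.91 ± 0.24 against preMegE (0.000286) and MkP 1.71 ± 0.27 above preCFUE (limma adjusted p = 0.00104). Rgs2 averaged 637 ± 85.7 in preGM, 564 ± 86.0 in CLP and 45.0 ± 6.14 in preMegE, a difference of preMegE from preGM of -3.42 ± 0.21 (limma adjusted p = 7.99e-08).

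Other signalling genes changed by smaller steps. Pik3cg, the kinase that G proteins switch on in leukocytes, averaged 238 ± 47.9 in preGM and 81.9 ± 28.9 in preMegE (a difference of -1.41 ± 0.22, limma adjusted p = 0.000859). Grk3, a kinase that marks active receptors for shut-off, fell by 1.26 ± 0.18 in MkP against preMegE (limma adjusted p = 0.000485). Arrb1, an arrestin, fell by 1.25 ± 0.28 in the same comparison (0.0157), a call that ended without MkP replicate 3 (0.0986), over a range of 0.00245 to 0.12. Rac1, a switch protein for cell movement, fell by 1.06 ± 0.23 in CLP against preGM (limma adjusted p = 0.0119), and did not pass without CLP replicate 3 (0.0533), over a range of 0.000813 to 0.13.

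**Figure D4:**
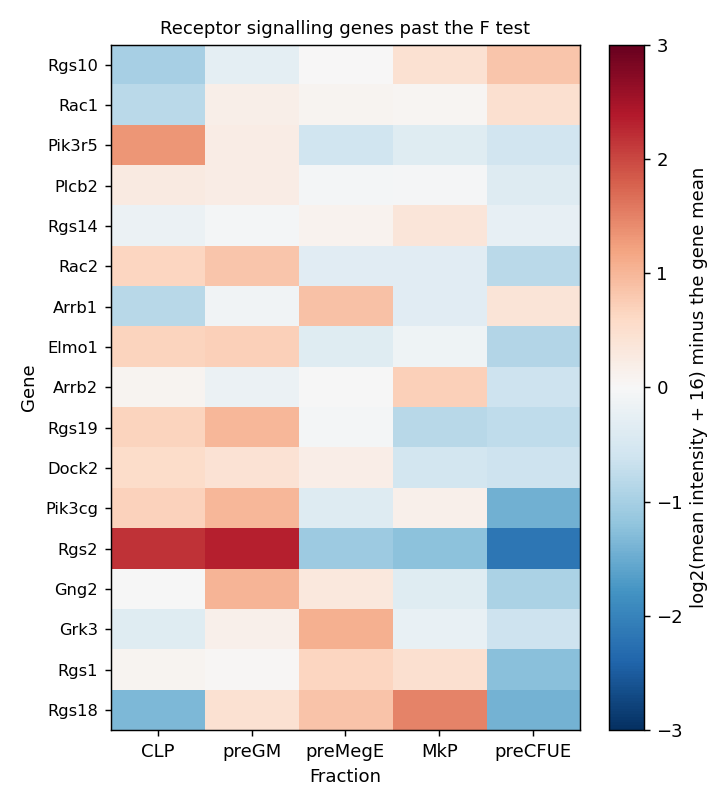
Heat map of the 17 receptor-signalling genes past the F test, in rows, over the 5 fractions, in columns. Colour is log2(mean intensity + 16) of the fraction minus the gene's mean of these over the fractions; Rgs18 is low in preCFUE and CLP, Rgs1 is low in preCFUE, and Rgs2 is high in preGM and CLP.

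Enzymes that cut chemokines were measured for 6 of 6 genes, of which 4 passed the F test, against 32.3% of all genes. Ctsg and Elane, among those 4, are also in the list of granulocyte and monocyte markers above, so their levels are not separate from that reading. Ctsg, a neutrophil granule protease that can trim CC ligands, averaged 3297 ± 879 in preGM, 61.4 ± 12.6 in CLP and 35.3 ± 17.3 in preMegE. It fell by 5.39 ± 0.28 in CLP (limma adjusted p = 4.08e-08) and fell by 6.03 ± 0.25 in preMegE (1.65e-09) against preGM, the same direction as Ccl9. Elane, neutrophil elastase, averaged 149 ± 60.5 in preGM and fell by 2.14 ± 0.26 in CLP (limma adjusted p = 0.000145, and 0.0502 in a fit of these 2 fractions alone, over a range from 1.1e-05) and fell by 1.98 ± 0.23 in preMegE (5.95e-05). Dpp4, which removes the end of Cxcl12, fell by 0.80 ± 0.21 in MkP against preCFUE (limma adjusted p = 0.0274). That call ended without MkP replicate 1 (0.121) or 3 (0.0793), or preCFUE replicate 1 (0.113) or 3 (0.0759), over a range of 0.00822 to 0.126.

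Genes whose levels ran most like each member were sought by Pearson correlation over the 17 arrays, among 7737 genes with a mean intensity of at least 50. The arrays of a fraction are not independent in this measure, so the values mainly describe which fractions are high together. A gene can reach that mean through a single high fraction. Rag1 averaged 1127 in CLP and 8.78 in preGM, and F13a1 averaged 1231 in preGM and 13.1 in CLP. For such genes r mostly sets a single high fraction against low values and gives no order among the rest. Ccr9 ran with Rag1, which cuts antigen receptor genes (r = 0.997), Gimap4 (0.992) and Arpp21 (0.991). Cxcr4 ran with Pde2a (0.976), Pgr (0.976) and Sdc1 (0.973). Ccl9 ran with F13a1, a clotting factor made by monocytes (0.981), Ms4a6c (0.979) and Ctsg (0.975).

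For the other members the closest genes had lower correlations. Cx3cr1 and Ccl6 both had Ak4, an adenylate kinase of mitochondria, at the head, with r of 0.891 and 0.929. Ccl3 ran with Nfatc2 (0.931), a transcription factor of activated lymphocytes, Hnf4a (0.930) and Il17re (0.925). Ccr7 had Mier2 (0.878), Ccr2 had 4930413G21Rik (0.864) and Ccl4 had Carns1 (0.841) as their closest genes.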

How the data were processed

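Affymetrix 3-prime arrays measured RNA amplified in several rounds of in vitro transcription, per the design text. The authors deposited linear RMA intensities, with 1 value for each probe set on each array. RMA stands in the design text and the submitters' processing notes, and its version is not given in the sources used here. Of all values 47.3% lay under 16. Arrays were grouped by the gate in their titles; the description field names another gate for all 17 arrays and was not used. The short names of the fractions other than preMegE come from general knowledge of the study. Genes were named through the platform annotation: 34945 non-control probe sets had 1 symbol, 932 several (not named) and 9160 none.

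Values were taken as log2(intensity + 16) and fitted in limma 3.58.1 (R 4.3.3, data.table version 1.17.8) with 1 term per fraction over all 17 arrays, giving 12 residual and 1.82 prior degrees of freedom. P-values were adjusted by Benjamini-Hochberg over 45037 probe sets within each of 10 comparisons and the F test. The fit was tested on simulated data. Plots used matplotlib 3.10.9 under Python 3.11.15. Named were all 9 members with every probe set, the 3 most correlated genes of each (only the closest is printed for 5 of them), and from 4 lists the genes with the 2 largest changes past the test in each of 5 comparisons. The members and lists were chosen with earlier results of these data known. No 2 arrays held identical values (highest r 0.995). Without a measured background for the probe sets, the number of arrays limits the precision and dim values are not evidence of absence.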

Additional observations from a re-analysis of the deposited data

How the results depend on the processing

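Under 29 other settings, 36 of 77 tested or printed changes kept their direction and their side of the threshold throughout, among them every called change of Cxcr4 and of the brightest probe sets of Ccr9 and Ccl9. Over all settings 1949 of 2151 values stayed on their side, 176 lost a call, 20 gained one and 6 changed sign. Testing only probe sets above the 40th percentile of mean level left 6 member probe sets past the F test (11 in the main setting), 3 in CLP against preGM (6) and 4 in preMegE against preGM (8), and gave 1 in MkP against preCFUE (0); dim members are not tested there. The filter on SD over mean above 0.5 left 4 past the F test and 2 in preMegE against preGM. Array weights gave 10 in CLP against preGM and 1 in MkP against preCFUE. With only the arrays of the 2 fractions compared, 3 passed in CLP against preGM and 4 in preMegE against preGM, with fewer arrays behind the spread.

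With the replicate number as a block, 5 passed the F test and 4 in preMegE against preGM. The numbers only name arrays: deviations of same-numbered arrays correlated between -0.54 and 0.50 (median -0.04, 12 of 30 pairs over 0.1). Leaving out each array gave 7 to 13 past the F test (7 without preGM replicate 2), 5 to 8 in CLP against preGM, 4 to 8 in preMegE against preGM (4 without preGM replicate 2, 5 without preGM replicate 1 or preMegE replicate 1), 0 in MkP or preCFUE against preMegE and 0 to 1 in MkP against preCFUE. The sign changes were all in uncalled differences: Ccl3 in CLP against preGM was 0.004 without CLP replicate 2 and 0.012 without preGM replicate 3, Cxcr4 in MkP against preMegE -0.008 without preMegE replicate 2 and -0.163 without MkP replicate 1, and Cxcr4 in preCFUE against preMegE -0.043 without preMegE replicate 2 and -0.126 without preCFUE replicate 3. Leaving out other arrays took these differences as far as -0.179 (Ccl3, without CLP replicate 3), 0.308 (Cxcr4 in MkP, without MkP replicate 2) and 0.168 (Cxcr4 in preCFUE, without preCFUE replicate 1). The cause of these changes was not tested. Levels near 16, as for Ccr7, Ccl6, Ccl3 and Cx3cr1, limit what the arrays resolve.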
